A study of Mus musculus with 201 samples.

Results

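Single dentate granule cells (DGCs) of the mouse hippocampus were chosen here by the detection of 3 immediate early genes (IEGs) at once, and cells of pentylenetetrazole (PTZ)-treated mice were set beside cells of saline-treated mice. PTZ blocks the GABA(A) receptor and provokes seizures. A cell was included if its total expected count was over 50000 and if *Fos*, *Egr1* and *Arc* each had more than 1 TPM, a read share corrected for transcript length and scaled to the same sum in every cell. The rule found 26 of the 201 deposited samples, each of which is 1 cell or 1 nucleus. They were 10 of 35 PTZ-treated and 16 of 47 saline-treated whole cells, and 42 further whole cells passed the limit on counts but lacked at least 1 of the 3 genes.

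All of these cells came from mice that carry green fluorescent protein under the *Prox1* promoter, and an injection of PTZ or of saline, at the same interval before dissection, set the groups apart. The hippocampi of a treatment were pooled, dissociated with papain and sorted on fluorescence, and single cells were amplified by Smart-seq2. Age and sex are not given in the sources used here. Sample titles end in 1 code for all PTZ cells and another for all saline cells, so that treatment, pool and whatever this code marks cannot be told apart. With 1 pool per treatment there is 1 sample per group, cells are not replicates, and no test was made.

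IEGs are genes whose transcription starts within minutes of strong synaptic input and needs no new protein. Calcium entry and the MAP kinase cascade act on transcription factors such as CREB and SRF that are already bound near their start sites. Many IEG products are transcription regulators themselves, and others, such as the cytoskeletal protein encoded by *Arc*, act at synapses. DGCs are sparsely active in the resting animal, and their fate is marked by the transcription factor PROX1.

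The 3 genes that chose the cells were abundant in most of them, and their values are given as a description only. *Fos*, which encodes a subunit of the AP-1 transcription factor, had 75.4 TPM in the lowest PTZ cell, a median of 3181 TPM and 12461 TPM in the highest. In saline cells the lowest, median and highest values of *Fos* were 2.04, 6405 and 12419 TPM. *Egr1*, a zinc-finger transcription factor, ranged from 19.4 to 2871 TPM in PTZ cells with a median of 919 TPM, and from 1.07 to 3515 TPM in saline cells with a median of 1787 TPM. *Arc* ranged from 1.01 to 2337 TPM in PTZ cells with a median of 502 TPM, and from 1.07 to 3361 TPM in saline cells with a median of 971 TPM. The ranges of the treatments overlapped for all 3 genes.

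Of the 26 cells, 3 lay close to the limit of 1 TPM. *Arc* was at 1.01 TPM in PTZ cell 25 and at 1.32 TPM in PTZ cell 13, numbers that only name the cells. Saline cell 27 had 2.04 TPM of *Fos* and 1.07 TPM each of *Egr1* and *Arc*, whereas every other saline cell had at least 1741 TPM of *Fos*. Just outside, saline cell 41 had 0.85 TPM of *Egr1* and of *Arc*, and PTZ cell 17 had 0.61 TPM of *Arc*. On either side of the limit on counts the nearest totals were 5318 and 67212.

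The 10 PTZ cells were not alike in depth or in the number of genes detected. The total expected count was 71231 in the lowest PTZ cell, with a median of 2190751 and a highest value of 5129240, and ran from 533924 to 1663261 in saline cells. Saline cells had 5539 to 7703 genes above 1 TPM, with a mean of 6755 ± 699 (SD, n = 16 cells). Of the PTZ cells, 6 had between 5589 and 6434 genes, and 4 (PTZ cells 11, 15, 16 and 28) had between 10244 and 12220. None of the 42 other whole cells passed 7854 genes. When every cell was thinned to 71212 counts, the lowest total after rounding, those 4 cells had 8018 to 9013 genes with a count, the other 6 PTZ cells 4723 to 5908 and saline cells 4580 to 6504. No caller of doublets was run.

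**Figure D1:**
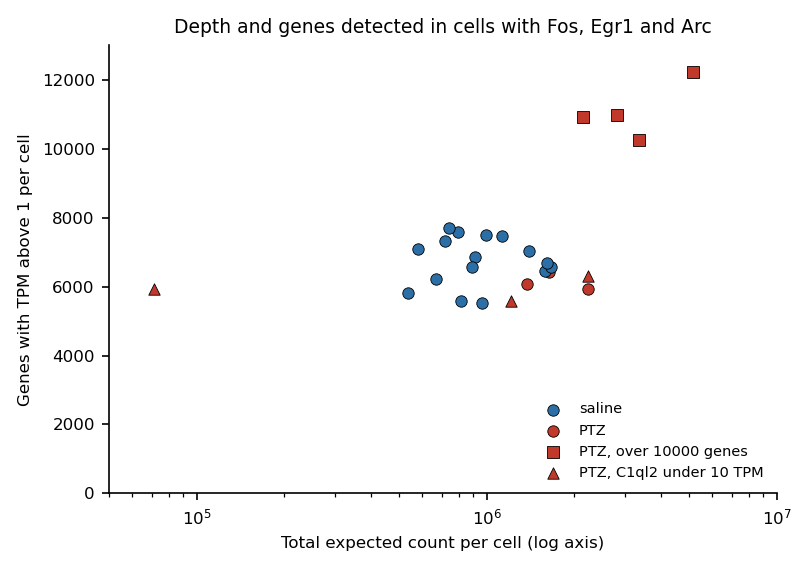
Genes with TPM above 1 (y axis) against the total expected count (x axis, log scale) in each of the 26 cells with *Fos*, *Egr1* and *Arc*; each point is 1 cell, blue for saline and red for PTZ. The squares are 4 PTZ cells with over 10000 genes, the triangles 3 with low *C1ql2*, and PTZ cell 20 lies far to the left at 71231 counts.

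*C1ql2* and *Calb1*, markers of mature DGCs, separated a different set of 3 PTZ cells. *C1ql2*, a synaptic organizer secreted at mossy fibre synapses of DGCs, was between 65.4 and 1390 TPM in the 16 saline cells and between 551 and 1265 TPM in 7 PTZ cells. It was at 0 in PTZ cells 13 and 20 and at 1.18 TPM in PTZ cell 25. *Calb1*, which encodes the calcium buffer calbindin of mature DGCs, was at 0.31, 6.11 and 0 TPM in these 3 cells in the same order. In the other 7 PTZ cells *Calb1* was between 94.9 and 384 TPM, and in saline cells it ran from 0 to 762 TPM. *C1ql3*, another marker of the list, did not separate the 3 cells. It was at 8.54, 0 and 0 TPM in PTZ cells 13, 20 and 25, and at 5.60 and 12.8 TPM in PTZ cells 29 and 5.

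PTZ cells 13 and 25 held transcripts of immature neurons. *Igfbpl1*, a marker of newborn granule neurons, was at 344 and 184 TPM in them, at 36.3 TPM or less in the other PTZ cells and at 2.80 TPM or less in saline cells. *Dcx*, another immature marker, was at 142 TPM in PTZ cell 13 but at 44.6 TPM in PTZ cell 25. It reached 66.7 TPM in PTZ cell 16 and 96.8 TPM in saline cell 32. *Tubb3*, a neuronal tubulin, was at 1417 and 1914 TPM in PTZ cells 13 and 25 and at 240 TPM or less in the others. The *Prox1* levels of PTZ cells 13 and 25, 1297 and 1227 TPM, were the highest of all 26 cells. These were also the 2 PTZ cells closest to the limit for *Arc*. PTZ cells 16 and 28, which had over 10000 genes, held markers of both kinds, with 36.3 and 26.5 TPM of *Igfbpl1* beside 762 and 551 TPM of *C1ql2*.

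PTZ cell 20 went against its label. Its *Prox1* was 8.28 TPM, whereas the other 25 cells had at least 209 TPM, and *Neurod6*, a transcription factor of pyramidal neurons, reached 1302 TPM in it. *Neurod6* was at 0 in all 16 saline cells and at 60.9 TPM or less in the other PTZ cells. It was the one cell with *Xist* (44.4 TPM), the RNA of the inactive X chromosome, although it also held 12.8 TPM of the Y-linked *Kdm5d*. *Eif2s3y*, another Y-linked gene, was detected in 9 of 10 PTZ cells and 15 of 16 saline cells.

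The summed level of CA pyramidal neuron markers had a higher median in these PTZ cells, and the 1302 TPM of *Neurod6* came from PTZ cell 20 alone. The sum of the 5 genes of that list had a median of 40.9 TPM and a highest value of 1787 TPM in PTZ cells, against 0 and 71.85 TPM in saline cells, and *Neurod6* was detected in 6 of 10 PTZ and 0 of 16 saline cells. The 3 genes of the list that were considered below had a median difference of 1.10 on the log2 scale, which was 0 with the 3 PTZ cells 5, 29 and 33. In the 42 other whole cells *Neurod6* was detected in 1 of 20 PTZ and 4 of 22 saline cells, a difference of -0.50. The median difference of the same 3 genes was 0.49 there. For glia, vessels and interneurons the levels were as follows. Of 8 microglia markers 7 were at 0 in every PTZ cell and 6 in every saline cell, and the summed TPM of the list did not pass 5.48 in any cell. Of 9 endothelial and blood markers, 5 in PTZ and 6 in saline cells were at 0 throughout, with *Cldn5* among them, and the sum per cell ran to 96.3 TPM in PTZ and to 71.8 TPM in saline cells. The sum of 6 astrocyte markers ran from 0 to 29.9 TPM in PTZ and from 0.73 to 85.8 TPM in saline cells. The oligodendrocyte list, of which 5 of 9 were at 0 throughout, summed to at most 234 TPM in PTZ and 152 TPM in saline cells. Of the GABA interneuron list, 8 of 9 genes were at 0 in every PTZ cell and 6 of 9 in every saline cell, while *Gad1*, the glutamate decarboxylase that granule cells also make, had a median of 169 TPM in PTZ and 152.5 TPM in saline cells. The part of these cells in the differences below was not tested, and the counts of calls and the list medians are therefore also given without the 4 cells with over 10000 genes, without the 3 cells with low *C1ql2* and without both sets, which leaves 3 PTZ cells. These choices were made after the values had been seen.

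**Figure D2:**
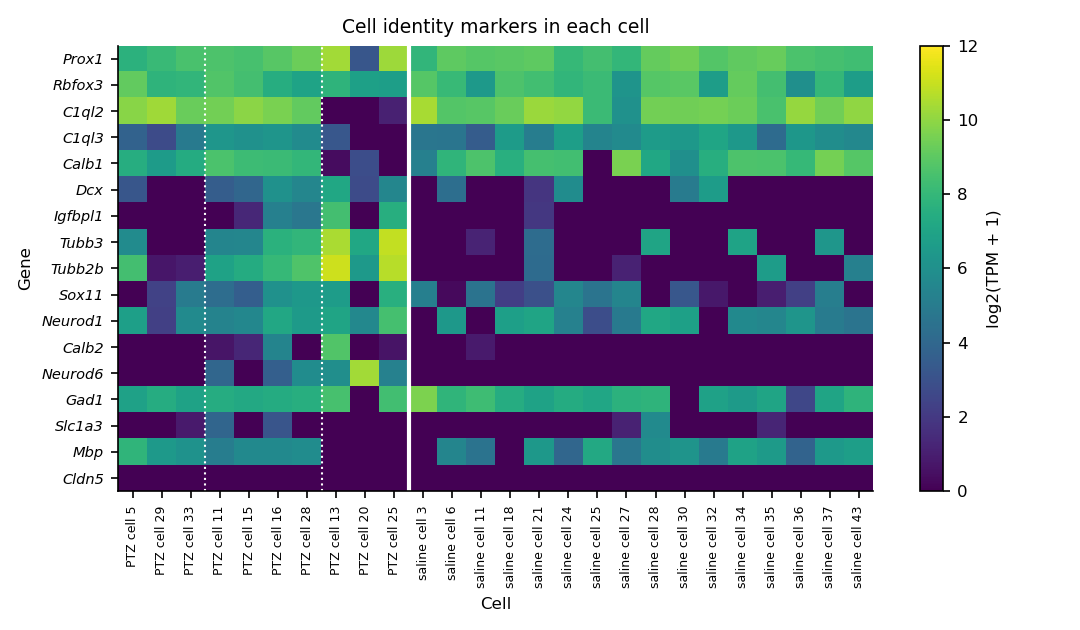
Levels of identity markers as log2(TPM + 1) (colour) for each gene (rows) in each cell (columns); the solid line separates PTZ from saline cells, and the dotted lines separate, from the left, 3 PTZ cells, the 4 with over 10000 genes and the 3 with low *C1ql2*. *C1ql2* and *Calb1* are low in PTZ cells 13, 20 and 25, *Igfbpl1* and *Tubb3* are high in cells 13 and 25, and *Neurod6* is high in cell 20.

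The comparison of PTZ with saline asks what differs between cells of the 2 treatments once all of them hold the 3 IEGs. For each gene, D is the mean over PTZ cells of log2(TPM + 1) minus the same mean over saline cells. A gene was considered if at least 5 of the 26 cells had more than 1 TPM, which 11533 genes did. It was called higher if D was at least 2 and the lower quartile of the PTZ cells lay above the upper quartile of the saline cells, and lower in the mirrored case. This is a rule of size and not a test. It called 246 genes higher (2.13% of those considered) and 28 lower (0.243%). By the size of D alone, 646 genes (5.6%) were at 2 or more and 133 (1.15%) at -2 or less, and the median D over all genes considered was 0.24.

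The counts depended on which PTZ cells were kept, and so did the median D over all genes considered, which was -0.25 without the 4 cells with over 10000 genes, 0.47 without the 3 with low *C1ql2* and -0.28 without both. Without the 4 cells with over 10000 genes, 162 genes were called higher and 278 lower, of which 114 and 24 were among the first calls. Without the 3 cells with low *C1ql2*, 540 were called higher and 14 lower, with 198 and 10 shared. With both sets left out, the 3 remaining PTZ cells gave 529 higher and 415 lower. Leaving out PTZ cell 16 alone gave 154 higher and 45 lower, and leaving out PTZ cell 11 gave 43 lower. In all, 81 genes were called higher and 8 lower under all 3 of these choices as well as with all cells. List medians and calls given below are to be read beside these values for all genes.

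Among the IEG transcription regulators, a list of 29 genes that does not hold the 3 used to choose the cells, 25 were considered. None was called higher and 2 were called lower, *Fosb* and *Btg2*. The median D of the list was -1.04, against 0.24 over all genes considered, with 10 of the 25 above 0 and 15 below. Without the 3 cells with low *C1ql2* the median was -0.24 against 0.47 over all genes, and no member was called lower. *Atf3* and *Klf10* were then called higher, where 540 of all 11533 genes were. With the 3 cells left when both sets were removed the median was 0.25 against -0.28. The same 2 genes were called higher, where 529 of all genes were. Without the 4 cells with over 10000 genes the median was -1.34 against -0.25, and *Fosb*, *Fosl2*, *Egr3* and *Npas4* were called lower, where 278 of all genes were. In the 42 other whole cells the same 25 genes had a median D of -0.08 against -0.25 over all genes. Those cells were set apart by the lack of at least 1 of *Fos*, *Egr1* and *Arc*. Detection of regulators there was uneven, with *Fosb* in 4 of 20 PTZ and 6 of 22 saline cells and *Jun* in 14 and 20. A gene undetected in both treatments has a D of 0 whatever the treatment does, so this median cannot be set against that of the chosen cells.

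*Fosb*, an AP-1 subunit like *Fos*, had 0, 11.6, 22.4, 33.7, 54.9, 254, 266, 372, 699 and 1019 TPM in the 10 PTZ cells. In saline cells its lowest, median and highest values were 0, 683 and 1493 TPM. The 4 lowest of these were PTZ cell 5 and the 3 cells with low *C1ql2*, and the ranges of the treatments overlapped. On the log2 scale *Fosb* averaged 6.32 ± 3.09 (SD, n = 10 cells) in PTZ and 8.55 ± 2.64 (n = 16 cells) in saline, a D of -2.23. D was -0.90 without the 3 cells with low *C1ql2*, -3.09 without the 4 with over 10000 genes and -0.85 without both, and the call was lost when PTZ cell 5 or PTZ cell 20 alone was left out.

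*Btg2*, an antiproliferative cofactor that recruits deadenylases to transcripts, was at 0.98 TPM in PTZ cell 13 and at 28.6 TPM in PTZ cell 20. The other 8 PTZ cells had between 193 and 3759 TPM, and saline cells had between 87.1 and 4236 TPM with a median of 1891 TPM. Its D was -2.12 with all cells, -2.86 without the 4 cells with over 10000 genes, -0.57 without the 3 cells with low *C1ql2* and -0.00103 with the 3 cells left when both sets were removed. Pooled over cells, *Btg2* held 44844 counts in PTZ, or 2019 CPM (the count scaled to the total of all genes, without regard to length; exact Poisson 95% interval 2000.3 to 2038), and 49050 counts in saline, or 3066 CPM (3039 to 3093). Such intervals cover counting error only.

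*Npas4*, a neuronal bHLH transcription factor induced by calcium entry, had the lowest D of the list, -3.52, but did not meet the condition on quartiles. It was at 0 or 0.41 TPM in PTZ cells 5, 13 and 20, at 16.4 and 23.6 TPM in PTZ cells 25 and 28, and between 873 and 2395 TPM in the other 5. Saline cells ran from 0.50 to 3137 TPM with a median of 1276 TPM, and 15 of 16 had more than 1 TPM. D was -1.56 without the cells with low *C1ql2*, -5.21 without the 4 with over 10000 genes and -2.34 without both.

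*Junb*, *Jun* and *Nr4a1* were detected in every PTZ cell. *Junb* and *Jun*, the partners of FOS proteins in AP-1, had a D of -1.22 and -1.29, and *Nr4a1*, an orphan nuclear receptor, had a D of -1.06. Each of the 3 was above 0 in D (0.52, 0.25 and 0.42) in the 3 PTZ cells left without both sets. *Nr4a2* and *Nr4a3*, of the same receptor family, had a D of -1.60 and -2.06, and *Nr4a3* stayed at -1.85 without the cells with low *C1ql2*. *Klf10*, a zinc-finger repressor induced by growth factor signals, was named after its values were seen as the one regulator with a D above 2. It was above 1 TPM in 5 of 10 PTZ cells, up to 75.02 TPM, and in 1 of 16 saline cells at 2.35 TPM, a D of 2.22 that did not meet the condition on quartiles.

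**Figure D3:**
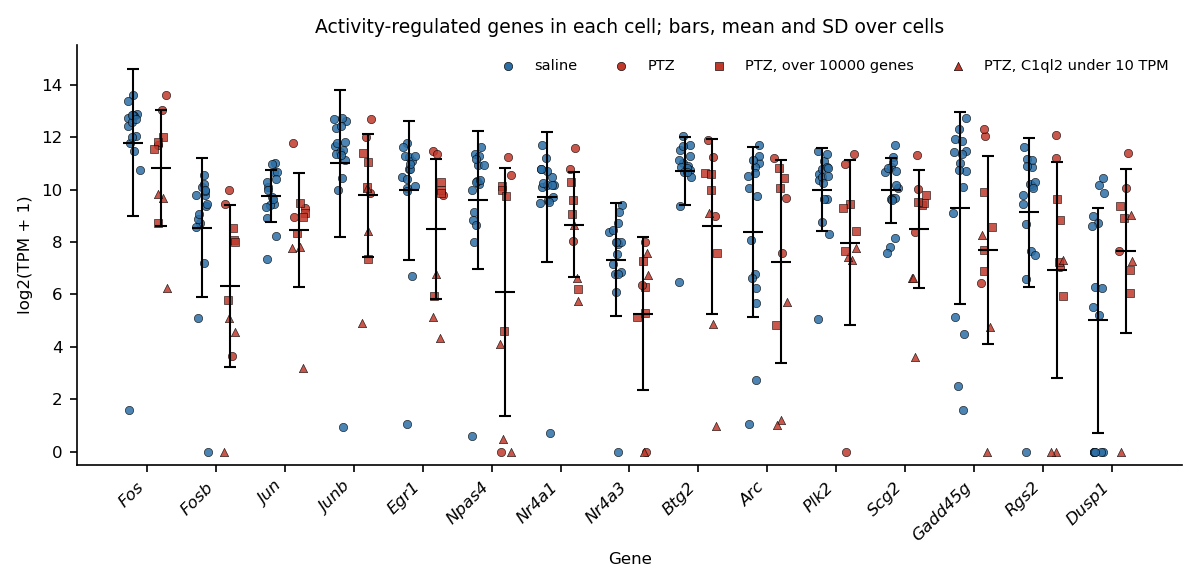
Levels of 15 activity-regulated genes as log2(TPM + 1) (y axis) in each of 16 saline (blue) and 10 PTZ (red) cells, with squares for PTZ cells with over 10000 genes and triangles for those with low *C1ql2*; black bars give the mean and SD over cells. For *Fosb*, *Btg2* and *Npas4* the lowest PTZ cells include triangles, and for *Dusp1* the PTZ mean lies above the saline mean.

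The proximal promoters of *Fos* and of the 3 activity-regulated genes called lower are shown from RefSeq on GRCm38.p6, each from 250 bases before to 50 bases after the start of transcription and read 5′ to 3′. Capitals mark every match to TGACG or CGTCA, which are the 2 strands of the core bound by CREB. The windows are shown because factors such as CREB act on IEGs near their start sites. Sites bound by SRF were not sought, and such sites can lie outside these windows.
*Fos*, chr12:85473640-85473939, plus strand: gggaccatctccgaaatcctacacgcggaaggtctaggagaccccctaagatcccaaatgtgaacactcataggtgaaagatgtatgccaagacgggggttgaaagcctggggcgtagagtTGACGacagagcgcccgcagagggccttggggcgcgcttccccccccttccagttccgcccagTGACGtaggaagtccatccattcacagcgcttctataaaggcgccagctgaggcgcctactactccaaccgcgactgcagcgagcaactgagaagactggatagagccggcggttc
*Fosb*, chr7:19309996-19310295, minus strand: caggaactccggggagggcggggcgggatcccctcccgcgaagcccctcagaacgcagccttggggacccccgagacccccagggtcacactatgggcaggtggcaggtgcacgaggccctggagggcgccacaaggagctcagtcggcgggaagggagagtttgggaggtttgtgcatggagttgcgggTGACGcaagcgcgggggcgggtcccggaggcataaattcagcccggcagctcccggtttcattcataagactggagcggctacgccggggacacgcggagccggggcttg
*Btg2*, chr1:134079106-134079405, minus strand: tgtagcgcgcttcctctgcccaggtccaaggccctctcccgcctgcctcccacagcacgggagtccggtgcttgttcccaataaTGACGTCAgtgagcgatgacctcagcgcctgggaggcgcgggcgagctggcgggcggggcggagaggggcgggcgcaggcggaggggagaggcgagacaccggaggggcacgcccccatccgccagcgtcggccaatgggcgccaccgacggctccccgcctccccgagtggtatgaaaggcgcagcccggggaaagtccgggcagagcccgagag
*Plk2*, chr13:110394794-110395093, plus strand: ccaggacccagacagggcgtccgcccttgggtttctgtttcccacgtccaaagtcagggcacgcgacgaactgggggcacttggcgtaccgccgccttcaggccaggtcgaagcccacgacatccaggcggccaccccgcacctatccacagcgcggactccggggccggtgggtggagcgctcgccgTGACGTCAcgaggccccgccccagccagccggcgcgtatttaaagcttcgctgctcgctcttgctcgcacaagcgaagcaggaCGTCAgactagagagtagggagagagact
The core was found in all 4 windows, and in 20.8% of the 32851 promoters in the table. The full palindrome TGACGTCA, in which a core on each strand overlaps, was found in the windows of *Btg2* and *Plk2* and in 1.79% of all promoters. These matches describe the letters of the window only.

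Of 28 activity-regulated effectors 24 were considered, with none called higher and *Plk2* called lower. The median D of the list was -0.42, against 0.24 over all genes considered, with 10 genes above 0 and 14 below. Without the cells with low *C1ql2* it was 0.53, against 0.47 over all genes. *Nptx2* and *Gadd45b* were then called higher, where 540 of all 11533 genes were, and no member of the list was called lower. Without the 4 cells with over 10000 genes the median was -1.32 against -0.25, with none called higher. *Bdnf*, *Homer1* and *Scg2* were then called lower, where 278 of all genes were. Without both sets the median was 0.02 against -0.28. *Plk2*, a kinase that acts in the scaling down of synapses, was at 0 in PTZ cell 5, at 2014 and 2650 TPM in PTZ cells 29 and 33, and between 159 and 693 TPM in the other 7 PTZ cells. Saline cells held 32.1 to 2878 TPM of *Plk2* with a median of 1444 TPM. Its D of -2.03 lay at the limit, and the call was lost in 11 of the 26 repeats that left out 1 cell and without either set of PTZ cells.

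*Dusp1*, a phosphatase that inactivates MAP kinases, stood on the other side. It was detected in 9 of 10 PTZ cells (90%, exact Clopper-Pearson 95% interval 55.5 to 99.7%), at 65.9 to 2728 TPM, and in 10 of 16 saline cells (62.5%, 35.4 to 84.8%), at up to 1385 TPM. Its D was 2.66 with all cells, 3.62 without those with low *C1ql2* and 4.70 with the 3 cells left when both sets were removed. The quartiles overlapped with all cells, so *Dusp1* was not called, and it was called higher with the last 3. In the 42 other whole cells it was detected in 7 of 20 PTZ and 2 of 22 saline cells, with a D of 1.64.

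For most of the other abundant effectors D was below 0 with all 10 PTZ cells, closer to 0 without the 3 with low *C1ql2*, and further from 0 without the 4 with over 10000 genes. *Rgs2*, which limits G-protein signalling, had a D of -2.20 that became -0.27 and -2.85 in these choices. *Gadd45g*, a stress sensor linked to DNA demethylation, had a D of -1.59 that became -0.16 and -1.98. *Scg2*, a granin of secretory vesicles, had a D of -1.48 that became -0.26 and, called lower, -2.20. *Nrn1*, a neuritogenic surface protein, had a D of -0.86 that became 0.25 and -1.71, and *Tiparp*, an ADP-ribosyltransferase, one of -1.45 that became -0.90 and -2.12. *Rheb*, the activator of mTORC1, was at 67.25 TPM or more in all PTZ cells, with a D of 0.68.

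Of the heat shock and stress list 20 of 24 genes were considered and none was called, with a median D of -0.03. The median was -0.46 without the 4 cells with over 10000 genes, 0.31 without the 3 with low *C1ql2* and 0.16 without both. Over all genes considered it was -0.25, 0.47 and -0.28 in the same order. *Ubb* and *Hsp90ab1*, abundant members that encode ubiquitin and a chaperone, had D of -0.17 and -0.22. Both were lowest in PTZ cell 20.

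PTZ blocks the GABA(A) receptor, the chloride channel through which GABA inhibits neurons. None of its 10 subunits considered was called, and their median D was -0.84, against 0.24 over all genes considered. *Gabra2* had medians of 315 TPM in PTZ and 273 TPM in saline cells, a D of -0.08. *Gabra5*, of extrasynaptic receptors, had a D of 0.77. *Gabrb2*, named after its values were seen, had a D of -2.31, which became -0.38 without the cells with low *C1ql2*. The median of the list became 0.21, against 0.47 over all genes. Without the 4 cells with over 10000 genes it was -1.34 against -0.25. *Gabrb2* and *Gabrd* were among the subunits then called lower, where 278 of all 11533 genes were. Without both sets the median of the list was -0.38 against -0.28.

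Among 14 ionotropic glutamate receptor subunits considered, *Grik4* was called higher and the median D was 0.11, or -0.18, 0.15 and -0.40 in the same 3 choices. *Grik4*, a kainate receptor subunit, was above 1 TPM in 7 of 10 PTZ cells, at 14.2 to 39.5 TPM, and in 3 of 16 saline cells, at up to 59.2 TPM. Its D was 2.53, and the call was lost without the 4 cells with over 10000 genes and when any of 7 PTZ cells was left out. *Gria2*, *Gria1* and *Grin2b*, the most abundant subunits, were in all 26 cells with D of -0.72, 0.24 and -0.08. *Grin2a*, an NMDA receptor subunit named after its values were seen, was at 0 in 4 PTZ cells and at 12.6 TPM or more in every saline cell, with a D of -3.17 that did not meet the condition on quartiles. Its D was -2.58 without the cells with low *C1ql2* and -4.89 without the 4 cells with over 10000 genes, when it was called lower.

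*Chrna7*, a nicotinic receptor subunit permeable to calcium, was above 1 TPM in 6 of 10 PTZ cells, at 1.79 to 29.7 TPM, and in none of 16 saline cells, which allows a share of up to 20.6% (Clopper-Pearson). Its D was 2.16 and the quartiles did not separate, but it was called higher, at 2.48, without the cells with low *C1ql2*. In the other whole cells *Chrna7* was detected in 3 of 20 PTZ and 5 of 22 saline cells, a D of -0.54. Of the acetylcholine receptor list 5 of 21 genes were considered and none was called. Their median D was 0.68, and 0.46, 0.54 and -0.28 in the same 3 choices, with D of -0.85 for the muscarinic *Chrm1* and 0.68 for the nicotinic *Chrnb2*. Of 75 other G-protein-coupled receptors 74 were in the table, 23 were considered and none was called, with a median D of 0.09 that was -0.89, 0.67 and -0.74 in those choices. *Adcyap1r1*, *Grm2* and *Gabbr1*, receptors for PACAP, glutamate and GABA, had D of 0.48, -0.33 and -1.02.

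In calcium signalling 42 of 55 genes were considered, with a median D of -0.45 and 1 call. Over all genes considered the median was 0.24. Without the 4 cells with over 10000 genes the median of the list was -0.73, against -0.25 over all genes. Of the list 4 genes were then called lower and 1 higher, where 278 and 162 of all 11533 genes were. The list median was -0.18 without the 3 with low *C1ql2*, against 0.47, and -0.44 without both, against -0.28. Without the 3 cells, 3 of the list were called higher and none lower, where 540 and 14 of all genes were. Without both sets, 2 were called higher and 4 lower, where 529 and 415 were. With all cells 4 of the list had a D of 2 or more and 1 of -2 or less, against 646 and 133 of all genes. *Camk1*, a kinase activated by calmodulin, was called higher. It was at 0 in PTZ cells 13 and 20 and between 43.8 and 216 TPM in the other 8, whereas only 4 of 16 saline cells had any above 1 TPM, at up to 155 TPM. Its D was 3.43 and at least 3.01 in the 3 choices of PTZ cells. The call held in all 26 repeats without 1 cell and under the other scalings, pseudocounts and choices of cells. When 13 cells were required, *Camk1* was detected in too few cells to be considered. In the other whole cells *Camk1* was detected in 5 of 20 PTZ and 4 of 22 saline cells, a D of 0.58. *Calm2* and *Ppp3ca*, a calmodulin gene and a catalytic subunit of calcineurin, had D of -0.53 and -0.73.

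Of the MAPK-CREB-SRF cascade 25 of 28 genes were considered, with a median D of -0.11 and 1 call. In the same 3 choices the median was -0.44, 0.21 and 0.10, against -0.25, 0.47 and -0.28 over all genes considered. *Hras*, the small GTPase upstream of RAF kinases, had a median of 94.5 TPM in PTZ and 11.7 TPM in saline cells and a D of 2.61. It was detected in 9 of 10 PTZ and 10 of 16 saline cells, and the call was lost without the 4 cells with over 10000 genes. *Map2k1* and *Araf*, kinases of the cascade, had D of -1.47 and 0.43.

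**Figure D4:**
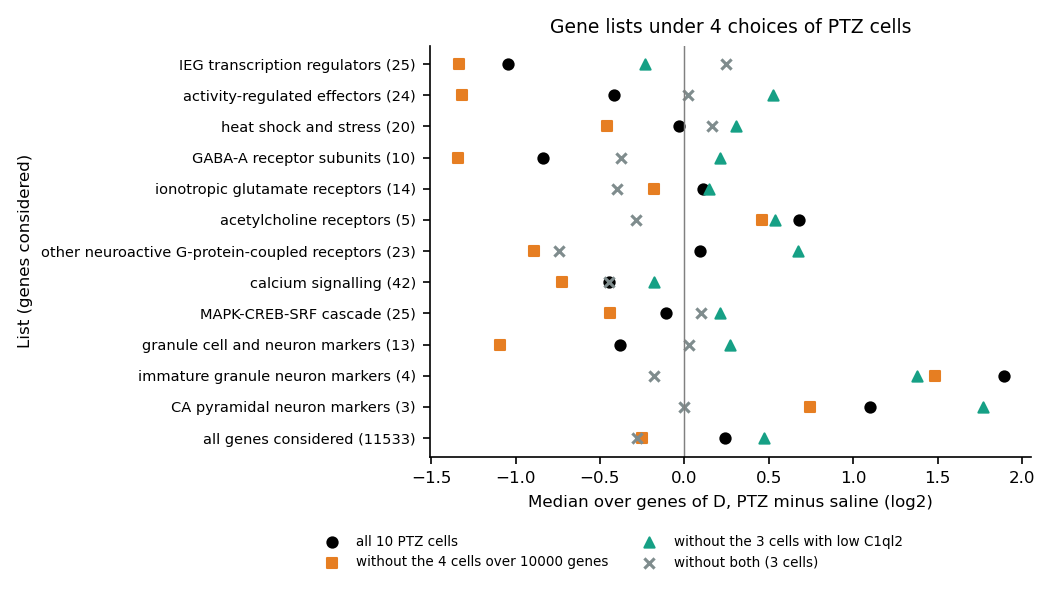
Median D over the considered genes of each list (x axis, log2 scale, PTZ minus saline) for 4 choices of PTZ cells; the number of genes is in brackets and the lowest row gives all 11533 genes. The IEG transcription regulators move from -1.04 with all cells to -0.24 without the 3 cells with low *C1ql2*.

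The largest values of D belonged to genes other than IEGs. *Gm12191*, *Serpina3n*, *Tubb2b*, *Dok4*, *Olfml2b*, *Tubb3*, *Chmp7*, *Sptssa*, *Gpr12* and *Morn4* led the calls that were higher in PTZ cells. *Gm15772*, *Gm24715*, *Gm8797*, *1700016P03Rik*, *Ankrd33b*, *Pde7b*, *Fgf5*, *Ntng1*, *Gm10359* and *Nelfb* led those that were lower. Positions are from GENCODE M21 on GRCm38.

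*Serpina3n* (chromosome 12, 104406729 to 104414329, plus strand), a secreted inhibitor of serine proteases of the acute phase response, was detected in 9 of 10 PTZ and 3 of 16 saline cells. It was at 0.66 TPM in PTZ cell 13 and between 103 and 594 TPM in the other 9 PTZ cells. Each of those 9 lay above the highest saline cell at 64.6 TPM, and the saline median was 0. Its D was 6.48 and lay between 5.46 and 7.38 in the 3 choices of PTZ cells. Pooled counts were 411 CPM (402 to 419) in PTZ and 6.19 CPM (5.03 to 7.53) in saline. In the 42 other cells, too, *Serpina3n* was detected in 15 of 20 PTZ and 6 of 22 saline cells, with a D of 4.15. Of its 31-base words 21.6% occur in transcripts of other genes.

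*Tubb2b* and *Tubb3*, tubulins of growing neurons, had D of 5.87 and 4.48 and were highest in PTZ cells 13 and 25. *Tubb2b* reached 2202 and 1683 TPM there, and was below 1 TPM in PTZ cells 29 and 33. Of the 31-base words of *Tubb2b* 35.2% also occur in *Tubb2a*. With the 3 PTZ cells left without both sets, D was 2.31 for *Tubb2b* and 0.32 for *Tubb3*. *Dcx*, a microtubule-associated protein of migrating neurons and 1 of the 4 immature markers considered, was called higher with a D of 2.29. Its D was -0.41 in those 3 cells, the one called gene named here whose sign turned. The median D of the 4 immature markers was 1.89 with all cells, 1.48 without the 4 cells with over 10000 genes, 1.38 without the 3 with low *C1ql2* and -0.18 without both.

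*Dok4*, an adaptor of receptor tyrosine kinases, was detected in 9 of 10 PTZ cells at 12.5 to 249 TPM and in 2 of 16 saline cells. Its D was 4.82, and between 4.87 and 5.43 in the 3 choices of PTZ cells. *Olfml2b*, an extracellular matrix protein, was at 0 in PTZ cell 29 and between 70.0 and 219 TPM in the other 9, against 3 of 16 saline cells with any above 1 TPM, a D of 4.81. *Gpr12*, a constitutively active receptor that raises cyclic AMP, was in all 10 PTZ cells at 7.37 to 266 TPM and in 5 of 16 saline cells, a D of 4.13. *Chmp7* and *Sptssa*, of nuclear envelope repair and of sphingolipid synthesis, were in all 10 PTZ and 6 of 16 saline cells each, with D of 4.37 and 4.33. *Morn4* had a D of 4.12. In the 42 other cells these genes had D of -0.25 (*Dok4*), -0.14 (*Olfml2b*), -1.94 (*Gpr12*), 0.45 (*Chmp7*), -0.57 (*Sptssa*) and -2.12 (*Morn4*).

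Of the 246 genes called higher, 112 (45.5%) had a D above 0 in the other whole cells, where 36.5% of all genes considered did, and 134 (54.5%) had a D below 0. A D of at least 1 was found for 30 of them (12.2%, against 5.06% of all genes) and a D of -1 or less for 39 (15.9%, against 18.5%). Of the 28 genes called lower, 24 (85.7%) had a D below 0 in the other cells, where 63.2% of all genes did, and 12 (42.9%, against 18.5%) had a D of -1 or less. The cells of both sets came from the same pools, and the difference between the sets was not tested.

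**Figure D5:**
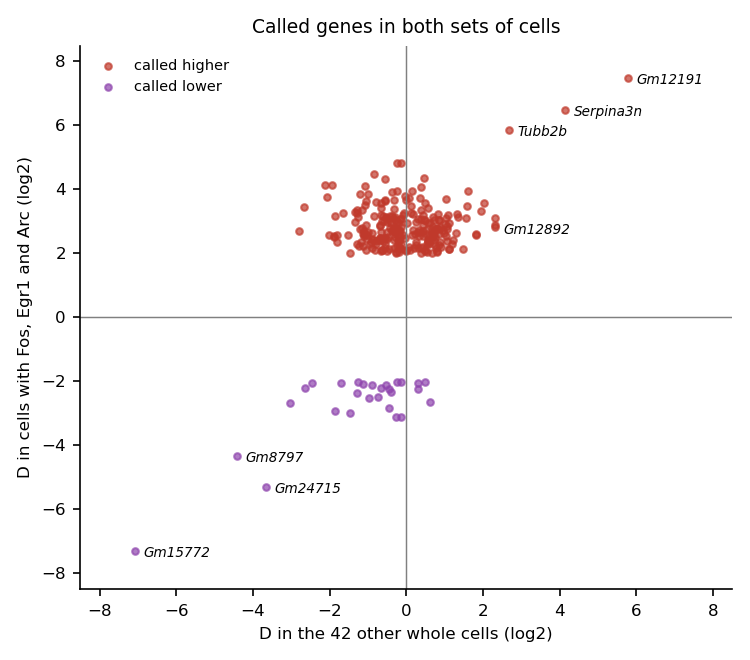
D in the 26 cells with *Fos*, *Egr1* and *Arc* (y axis, log2 scale) against D in the 42 other whole cells (x axis, log2 scale) for the 246 genes called higher (red) and 28 called lower (purple). *Gm12191*, *Serpina3n* and *Tubb2b* are high and *Gm15772*, *Gm8797* and *Gm24715* low in both sets, whereas most genes called higher lie between -1 and 1 on the x axis.

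Of these 20 genes, 4 were genes that share nearly all of their sequence with other genes. *Gm15772*, a processed pseudogene on chromosome 5 (3236431 to 3236868, plus strand), had the largest negative D, -7.31. It was at 104 to 544 TPM in all 16 saline cells and at 0 in 8 of 10 PTZ cells, with 74.7 TPM in PTZ cell 20 and 2.26 TPM in PTZ cell 28. *Gm15772* held 2 counts over all PTZ cells and 970 over all saline cells, so those 2 values rest on very few reads. The treatments did not overlap, and in the other cells *Gm15772* was detected in 2 of 20 PTZ and 20 of 22 saline cells. Its 438 bases match the transcript of *Rpl26*, a protein of the large ribosomal subunit, at 436 positions. The stretch of 120 bases that holds both differences is shown from GENCODE M21, 5′ to 3′ and from base 169 of *Gm15772* and base 216 of *Rpl26*, with the differing bases in capitals.
*Gm15772*: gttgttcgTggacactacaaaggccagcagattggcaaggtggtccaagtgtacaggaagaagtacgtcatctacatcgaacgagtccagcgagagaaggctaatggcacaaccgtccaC
*Rpl26*: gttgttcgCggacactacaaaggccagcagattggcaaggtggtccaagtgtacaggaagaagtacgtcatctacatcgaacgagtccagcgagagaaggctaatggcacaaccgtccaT
With sequences this close, a read can be placed on either gene, and the values of each alone are uncertain. When TPM values of *Gm15772* and the 3 genes that hold at least 50% of its 31-base words (*Rpl26* among them) were summed in each cell, a choice made after the values had been seen, D was -0.30 in place of -7.31. Pooled counts of that sum were 188 CPM in PTZ and 184 CPM in saline, of which *Gm15772* took 0.0478% and 32.9%.

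*Gm12191*, a pseudogene of the ribosomal protein gene *Rpl30* on chromosome 11 (49678710 to 49679057, minus strand), was the mirror image and had the largest D of all, 7.50. It was between 418 and 880 TPM in 9 PTZ cells, at 0 in PTZ cell 20 and at 20.5 TPM or less in saline cells. All of its 31-base words occur in other transcripts. Summed with the 8 genes that hold at least 50% of them, D was -0.29. Pooled counts of the sum were 179 CPM in PTZ and 180.2 CPM in saline, of which *Gm12191* took 46.2% and 0.243%.

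*Gm8797*, whose words are shared with *Gm1821* and with the ubiquitin gene *Ubb*, was at 48.6 TPM or less in PTZ and at 236 to 961 TPM in saline cells, a D of -4.34 that became -0.67 in the sum with both. *Gm10359*, a pseudogene of the glycolytic gene *Gapdh*, had a D of -2.68 that became -0.77 in the sum with 39 genes. *Gm24715*, annotated as a miRNA gene of which 53.8% of words occur elsewhere, was at 248 TPM or less in PTZ and at 469 TPM or more in saline cells, a D of -5.30. It held 28 counts over all PTZ cells and 400 over all saline cells.

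Among the other genes that were lower, *1700016P03Rik*, annotated as a processed transcript on chromosome 11 (75172560 to 75177633, plus strand), shared no word with another gene. It was at 18.6 TPM or less in PTZ cells, with 4 at 0, and had a median of 55.0 TPM in saline cells, a D of -3.13 that lay between -3.65 and -2.36 in the 3 choices of PTZ cells. *Ankrd33b*, an ankyrin-repeat protein, was at 27.5 TPM or less in PTZ and had a median of 55.05 TPM in saline cells, a D of -3.12. Both had a D near 0 in the other whole cells, -0.13 and -0.27. *Pde7b*, a cyclic AMP phosphodiesterase, was detected in 3 of 10 PTZ and 13 of 16 saline cells with a D of -2.98, and *Fgf5*, a fibroblast growth factor, in 4 and 12 with a D of -2.94. *Ntng1*, a membrane-anchored netrin, and *Nelfb*, a subunit of the factor that pauses RNA polymerase II, had D of -2.83 and -2.66. The call of *Fgf5* was lost in 19 of the 26 repeats without 1 cell.

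*Prox1* and *Rbfox3*, markers of granule cells and of neurons, were above 1 TPM in all 26 cells with D of -0.34 and -0.06. None of the 13 granule cell and neuron markers was called, and their median D was -0.38. Without the 4 cells with over 10000 genes the median was -1.09 and *Calb1* and *C1ql3* were called lower, without the 3 cells with low *C1ql2* it was 0.27 and without both it was 0.03. *Dap*, a death-associated protein, was detected in 4 of 10 PTZ and 1 of 16 saline cells, at 18.4 TPM or less, a D of 1.08. The D of *Dap* was 0.42 without the 4 cells with over 10000 genes and 1.13 without the 3 with low *C1ql2*. Without both sets it was -0.12, and none of the PTZ cells left had *Dap* above 1 TPM. In the other whole cells it was -0.39.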

How the data were processed

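Whole-cell values were analysed, and the tables of nuclei were not used here. Reads had been trimmed and then quantified by RSEM (with Bowtie 1.0.0, per the submitters' processing notes) against GRCm38 and Ensembl genes, and the authors deposited 2 tables of 42790 gene symbols. The expected counts deposited are RSEM estimates of reads per gene, without normalization. The deposited TPM values are scaled to each cell's own total. Neither table holds rows of ERCC spike-ins.

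Treatment was taken from the labels. Genes detected, log2(TPM + 1), shares with exact Clopper-Pearson 95% intervals and sums of rounded expected counts with exact Poisson 95% intervals were computed with Python 3.11.15, numpy 2.4.6, pandas 2.3.3 and scipy 1.17.1. A count of 3 corresponds to 5.85e-05% to 0.00421% of the total of a cell. Intervals cover counting error only, since reads lacked molecular identifiers and cannot be counted as molecules. TMM factors (edgeR 4.0.16) and size factors (DESeq2 1.42.0) served as other scalings. The study's methods test expected counts with edgeR. That was not repeated, because cells of 1 pool are not replicates.

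The genes named are *Fos*, *Egr1*, *Arc*, *Prox1*, *Rbfox3*, *Dap*, *Chrna7* and sex-linked genes, the 10 called genes with the largest D in each direction, up to 4 called genes of each list, and the most abundant members (8 each of the 2 IEG lists, 3 of the receptor, calcium, stress and cascade lists). Other genes were named after their values were seen. The cells, lists and rule were chosen with earlier results of these data known. Shared sequence was counted as 31-base words of GENCODE M21 transcripts on the same strand. Some genes that the rule names are not reported here.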

Additional observations from a re-analysis of the deposited data

Results flagged for a closer look

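The 10 PTZ cells were checked for values far from the others, in totals, genes detected and 69 named genes on the log2(TPM + 1) scale. A value was singled out if its gap to the next, divided by the range of the 10, passed Dixon's 95% critical value. This occurred for 20 of the 71 measures, where chance alone singles out about 1 in 20 groups of values that follow a normal distribution, which detection in single cells does not. Of the 20, 15 were PTZ cell 20, the cell with 71231 counts and 8.28 TPM of *Prox1*. PTZ cell 20 was the lowest for *Prox1* (0.632), *Eif2s3y* (0.574), *Gm12191* (0.89), *Dok4* (0.472), *Gm8797* (0.639), *Jun* (0.535), *Dusp1* (0.531), *Ubb* (0.71), *Hsp90ab1* (0.843), *Gabra5* (0.836), *Calm2* (0.674) and *Hras* (0.536). It was the highest for *Xist* (1), *Tsix* (1) and *Gm15772* (0.727), with the ratio in brackets in each case. For *Gm15772* all PTZ cells together held 2 counts.

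Other PTZ cells stood apart for 1 or 2 genes each. PTZ cell 13 was lowest for *Serpina3n* (0.703), PTZ cell 5 for *Morn4* (0.688) and *Plk2* (0.644), PTZ cell 29 for *Olfml2b* (0.79) and PTZ cell 25 for *Nrn1* (0.71). The 16 saline cells were not checked in this way.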

How the results depend on the processing

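No paired analysis was possible because each treatment is 1 pool and no result comes from a test. With all cells 246 genes were called higher and 28 lower, 646 and 133 passed the size of D alone, the median D was 0.24, and PTZ cells had on average 1310 more genes than saline cells. CPM of the rounded counts gave 303 genes higher and 17 lower. TMM factors gave 336 higher, 8 lower and 1011 with D of 2 or more. DESeq2 size factors gave 150 higher, 17 lower, and 249 and 55 by size alone. A pseudocount of 5 gave 58 and 11, and 82 and 17 by size alone, while 0.1 gave 54 lower and 2159 and 481 by size alone. Requiring 13 cells gave 99 higher and 340 by size. Thinning to 71212 counts gave 17 lower, and no limit on counts gave 119 higher. Without the 4 PTZ cells with over 10000 genes, 162 were higher, 278 lower and 954 at -2 or less, and PTZ cells had on average fewer genes, a difference of -709.3. Without the 3 with low *C1ql2*, 540 were higher and 14 lower, with 1130 and 57 by size alone. Without both, 529 were higher, 415 lower and 1187 at -2 or less, the difference in genes was -602.7, and the D of *Dcx* was -0.41. The scalings moved the median D to between 0.12 and 0.41, and it was -0.25, 0.47 and -0.28 without the 4 cells, the 3 cells and both. The cause of these differences was not tested, except that the choices of cells or genes change which values enter.

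When 1 cell at a time was left out, calls ranged from 154 to 275 higher and from 25 to 45 lower, and by size alone from 571 to 810 higher and from 84 to 226 lower. The median D ranged from 0.14 to 0.32 and the difference in genes from 848 to 1585. Of the calls, 120 higher and 11 lower held in every one of these repeats. The count at -2 or less moved by over 1.5 times without PTZ cell 11 (217), 13 (84), 15 (211), 16 (226) or 28 (212). The call of *Hras* was lost under 7 of the other alternatives, that of *Btg2* under 9, and those of *Plk2*, *Dcx* and *Fgf5* under 7 each. Those of *Pde7b* and *Ntng1* were lost under 5 each, that of *Fosb* under 4 and that of *Grik4* under 3. Those of *Tubb3*, *Ankrd33b* and *Gm10359* were lost under 2 each, and those of *1700016P03Rik*, *Nelfb* and *Morn4* under 1 each. Those of *Gm12191*, *Serpina3n*, *Tubb2b*, *Dok4*, *Olfml2b*, *Gm15772* and *Camk1* were lost under none. These numbers leave the filters on genes aside. When 13 cells were required, *Gm12191*, *Serpina3n*, *Tubb2b*, *Dok4*, *Olfml2b*, *Camk1* and *Grik4* were detected in too few cells to be considered. PTZ cell 20, at 71231 counts, had the lowest total of all the cells compared, and the part of depth in its values was not tested.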
